A study of Mus musculus with 8 samples.

Results

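Wnt1 protein in the culture medium of embryonic lung stalk mesenchyme is the subject of this comparison, which rests on 4 of the 8 arrays of the series. Arrays were chosen by their labels alone: 2 of stalk kept for 12 h on tissue-culture plastic in growth medium with 400 ng/ml Wnt1, and 2 kept for 12 h in the same way in control growth medium. All 4 hold total RNA of mesenchyme dissected from the lungs of CD1 mouse embryos of day 11.5 to 12.5, a range of ages that the labels do not resolve by array, and the labels name no transgene or mutation. The labels do not give the species or the maker of the Wnt1 protein. Whether replicates came from separate litters or cultures is unstated, and a p-value here reflects how these 4 arrays scatter, some of which can be technical. Array numbers 1 and 2 are those of the titles.

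Wnt ligands bind Frizzled receptors together with an Lrp co-receptor, and in the canonical branch this stops the Axin and Gsk3b complex from marking beta-catenin for destruction. Beta-catenin then enters the nucleus and joins Tcf and Lef factors at target genes, several of which encode the pathway's own inhibitors. In the embryonic lung, Wnt signals between the epithelium, the surface mesothelium and the mesenchyme are known for their part in growth of the mesenchyme and in the laying down of airway smooth muscle. The stalk mesenchyme lies along the airway behind the growing branch tips.

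Upstream sequences of a pair of Wnt-linked genes are given because these genes differ in how their arrays separate. Axin2, an inhibitor of the pathway that is also its widely used target gene, had overlapping groups, whereas Dkk2, a secreted antagonist that binds the Lrp co-receptor, had the widest gap of any Wnt gene. Both stretches are the 250 bases before the annotated start on the plus strand of the mouse genome, from RefSeq on build GRCm38.p6. The Axin2 stretch lies at chr11:108920099-108920348 and the Dkk2 stretch at chr3:132085042-132085291. Capitals mark CTTTGA or CTTTGT, the core that Tcf and Lef factors bind, searched on both strands (the other strand reads TCAAAG or ACAAAG).
Axin2: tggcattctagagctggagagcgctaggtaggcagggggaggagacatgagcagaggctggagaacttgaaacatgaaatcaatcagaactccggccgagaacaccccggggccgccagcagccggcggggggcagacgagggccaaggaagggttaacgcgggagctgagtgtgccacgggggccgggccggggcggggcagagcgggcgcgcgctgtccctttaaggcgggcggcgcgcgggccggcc
Dkk2: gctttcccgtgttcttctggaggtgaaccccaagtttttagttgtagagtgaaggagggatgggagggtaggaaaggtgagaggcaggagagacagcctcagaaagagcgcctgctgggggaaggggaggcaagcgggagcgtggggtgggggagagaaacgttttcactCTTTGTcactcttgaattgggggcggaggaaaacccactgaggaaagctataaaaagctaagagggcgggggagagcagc
The Axin2 stretch held no match, and the Dkk2 stretch held 1, CTTTGT, whose first base lies 80 bases before the start. Lef1, a target whose groups overlapped, was searched too and is not printed. Of its annotated starts, the one numbered 4 held 3 matches and the others none. Of 27025 genes in the promoter table, 30.8% held at least 1 match in a stretch of this length before any of their annotated starts. Of those tested on the arrays 26.3% did. So did 3 of the 7 Wnt antagonists and 3 of the 9 Wnt targets that were both tested and listed there. A gene with several starts counted if any of them had a match, so these shares are not those of a single stretch. A match of these letters is a description of the sequence.

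Values are MAS5 signals, the linear brightness of a probe set after Affymetrix's background and mismatch correction, scaled by the authors to a trimmed mean near 500 on every array. The median signal was 298 and 209 on the control arrays and 295 and 149 on the Wnt1 arrays. The ratio of the 3' to the 5' probe sets of Actb, which grows as RNA is shortened, was 21.2 to 24.4 on 3 of the 4 arrays and 6.81 on Wnt1 array 2, against 2.02 to 4.52 on the uncultured arrays. Hybridisation controls stood at 2.99 to 11.6 times their uncultured mean. Across 14184 genes, which are not independent of each other, control array 2 and Wnt1 array 2 correlated at 0.923, and every other pair, replicates included, at 0.842 to 0.852. The part of these array differences in the results below was not tested.

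No gene passed the test. Fitted with limma on log2 signal, 0 of 14184 genes (0% in either direction) had a Benjamini-Hochberg adjusted p under 0.05, and the smallest adjusted p was 0.654. At an unadjusted limma p under 0.05, 120 genes (0.846%) were higher with Wnt1 and 205 (1.45%) lower, together 2.29%. Replicates differed more than groups did: 3464 genes (24.4%) differed at least 2-fold between the control arrays and 4439 (31.3%) between the Wnt1 arrays, against 998 (7.04%) between the group means, which as means of 2 arrays also vary less. The standard error of a log2 difference was 0.52 to 1.25 with a median of 0.59, and it follows the gene's intensity alone, since the fit drew every gene's spread from the trend shared by all genes.

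Because the test called nothing, genes are described by whether the groups overlap. With 2 arrays per group, many genes separate without any effect of the medium, so a separation is a description and not a test. Both Wnt1 arrays lay above both control arrays for 1348 genes (9.5%) and below them for 2199 (15.5%). That split follows the scaling: 38% of the non-overlapping genes were higher with Wnt1 as deposited, 51% after quantile normalization and 58.2% after setting all medians equal. List counts of genes without overlap below are to be read beside the 9.5% and 15.5% of all genes. Differences were above 0 for 6254 of the 14184 genes and below 0 for 7930, beside which counts by sign are to be read. The median log2 difference of all genes moved from -0.07 to 0.13 between the deposited and the median scaling, so list medians below are given relative to that of all genes, as "relative median". A gap is the distance from the lowest array of the higher group to the highest array of the lower group, with signals under 298 raised to 298. It reached 2-fold in 14 genes higher with Wnt1 (0.0987%) and in 24 lower (0.169%). For many genes named below, the paragraph ends with an alternative that moved the difference over 1.5 times or turned its sign. The probe-set mean averages a gene's probe sets above the filter on low signal. The floored difference has signals under 298 raised to 298. Other alternatives are values under another scaling. Not every such move is given, so a gene without an alternative need not be stable. Median scaling brought Znrf3 from -0.24 to -0.03, Cd68 from -0.22 to -0.002 and Bnip3 from -0.25 to -0.008.

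**Figure D1:**
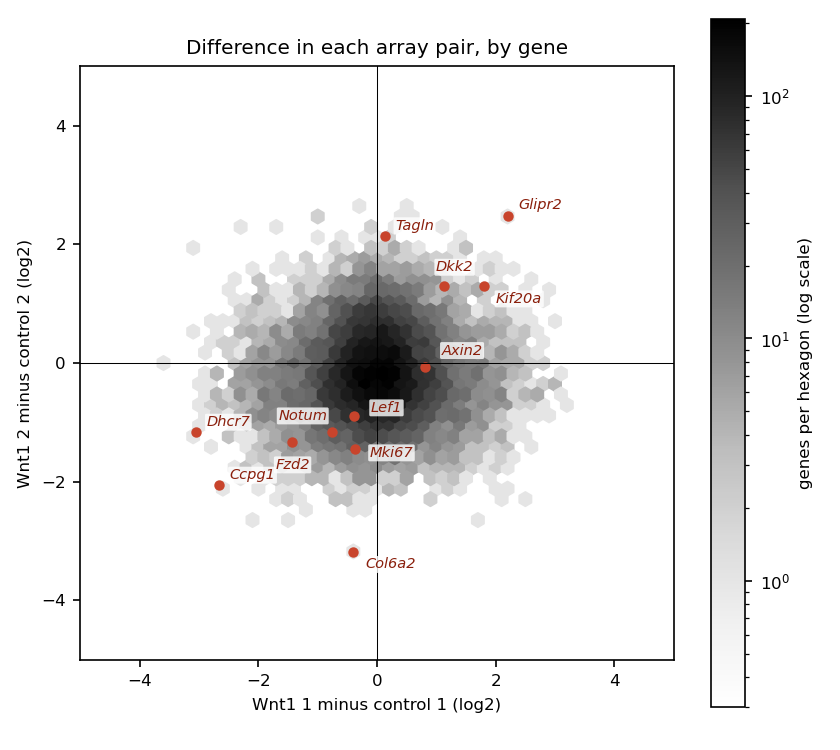
Log2 difference of Wnt1 array 1 minus control array 1 (x axis) against Wnt1 array 2 minus control array 2 (y axis) for 14184 genes, shaded by the number of genes per hexagon on a log scale, with 12 genes marked. Glipr2, Kif20a and Dkk2 lie in the upper right, Ccpg1, Dhcr7 and Fzd2 in the lower left, while Col6a2 and Tagln lie near 0 on the x axis and far from it on the y axis.

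The direct transcriptional readout of the canonical pathway was not higher with Wnt1 as a group. Of the 20 target and feedback genes on the array, 18 were tested, none passed limma's adjusted threshold, and 5 had log2 differences above 0 and 13 below. Only 7 of the 18 were above 298 on all 4 arrays. The groups did not overlap for 7: 1 was higher with Wnt1 and 6 were lower, beside 9.5% and 15.5% of all genes. The relative median was -0.19, with -0.31 for the arrays numbered 1 and -0.20 for those numbered 2. With the numbers crossed it was 0.01 for Wnt1 array 1 minus control array 2 and -0.10 for Wnt1 array 2 minus control array 1. The relative median stayed below 0, from -0.27 to -0.08, in 17 alternative settings, some of which cannot move a median. The count of genes without overlap was 3 higher and 6 lower after quantile normalization and 1 higher and 4 lower after median scaling.

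Axin2 had signals of 242 and 277 in control medium and 484 and 260.5 with Wnt1. Wnt1 array 1 was the highest of the 4 and Wnt1 array 2 lay between the controls, so the groups overlapped. Only Wnt1 array 1 was above 298, the stand-in for the noise level. Its log2 difference was 0.37 ± 0.65 (SE, n = 2 per group; 95% interval -0.91 to 1.65). The interval holds both no difference and a 2-fold one. With signals raised to 298 the difference was 0.29. A second Axin2 probe set, at 31.3 and 346 in control medium and 83.0 and 25.1 with Wnt1, gave -0.73. Uncultured stalk had 749.9 and 821 on the probe set used.

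Lef1, the nuclear partner of beta-catenin and itself a target, had 885 and 602 in control medium and 657 and 287 with Wnt1, a log2 difference of -0.64 ± 0.56. Its groups overlapped, since Wnt1 array 1 lay above control array 2. A second Lef1 probe set, at 155 and 76.0 in control medium and 350.1 and 101 with Wnt1, gave 0.54. Nkd1, an inhibitor that binds Dishevelled, had 823 and 935 in control medium and 705 and 512 with Wnt1, without overlap (-0.49 ± 0.55). Notum, an enzyme that removes the lipid from Wnt proteins, had 364 and 382 against 183 and 125 with Wnt1, again without overlap (-0.96 ± 0.71). Both Wnt1 values of Notum were under 298, and with signals raised to that floor the difference was -0.26. Znrf3, a ligase that removes Frizzled receptors from the surface, had 391 and 375 in control medium and 333 and 293 with Wnt1 (-0.24 ± 0.63).

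Tbx3, a T-box factor, had 784 and 970.1 in control medium and 284 and 614 with Wnt1 (-0.92 ± 0.56). Lgr5, a receptor for R-spondins, had 530.2 and 293 in control medium and 276 and 182 with Wnt1 (-0.64 ± 0.66), and Sp8 was under 298 on all 4 arrays. Tnfrsf19 was the target without overlap in the other direction, at 383 and 433 in control medium and 552 and 520.2 with Wnt1 (0.34 ± 0.58). Apcdd1, a membrane-bound Wnt inhibitor, had 513 and 861 in control medium and 1141 and 777 with Wnt1 (0.45 ± 0.54), with overlap on the probe set used. Of the 5 other Apcdd1 probe sets 3 gave differences above 0 and 2 below. The growth genes Ccnd1 (-0.38 ± 0.53) and Myc (0.17 ± 0.61) overlapped. Sp5 and Rnf43 were under the filter on low values and Tcf7 had no probe set assigned to it alone. Tbx3, Tnfrsf19, Apcdd1 and Ccnd1 had probe-set means of -0.47, 0.22, 0.29 and -0.10. Lgr5 had a floored difference of -0.34.

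**Figure D2:**
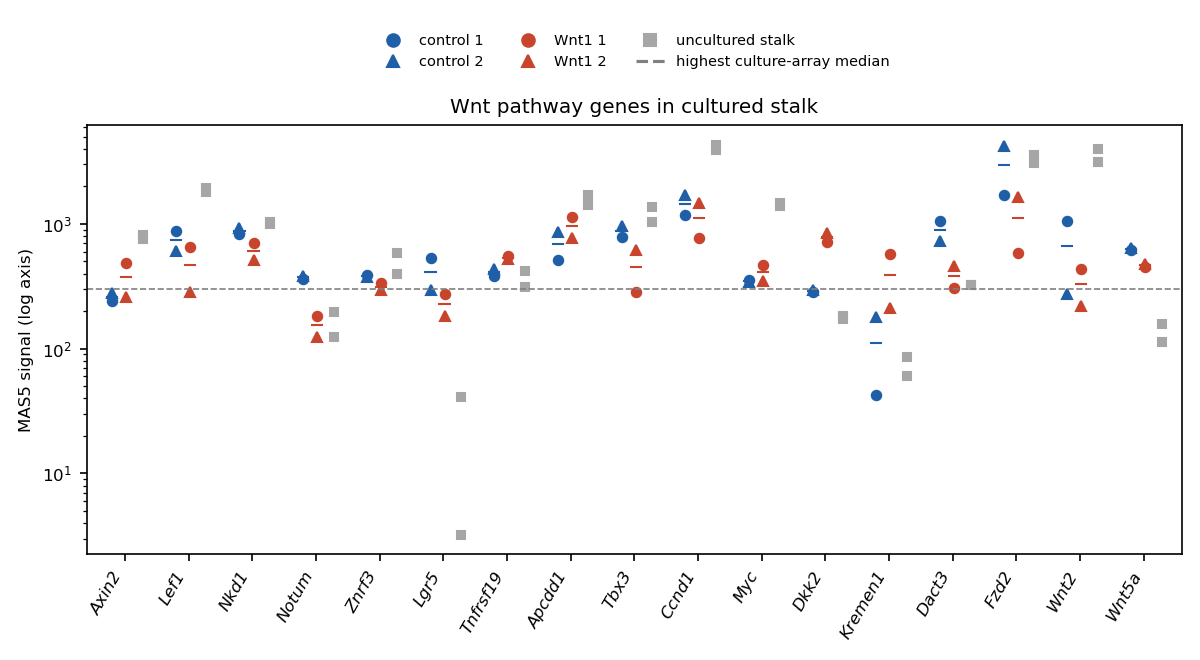
MAS5 signal on a log axis of 17 Wnt pathway genes in each control array (blue) and Wnt1 array (red), with circles for arrays numbered 1, triangles for those numbered 2, a short bar at each group mean and grey squares for uncultured stalk; the dashed line is the highest culture-array median, 298. Dkk2 has both red points well above both blue ones, Axin2 has 1 red point above and 1 between the blue ones, and Notum, Tbx3 and Fzd2 have both red points below.

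Dkk2 had the widest gap among the Wnt genes, with 285 and 293 in control medium and 721 and 840.4 with Wnt1. The replicates lay close together in each group, and the lower Wnt1 array was 2.42-fold above the floor of 298, which stands above both controls. The log2 difference was 1.22 ± 0.58 (95% interval 0.08 to 2.35; limma unadjusted p = 0.035, not past the adjusted threshold), 1.13 for the arrays numbered 1 and 1.30 for those numbered 2. It ranged from 1.06 to 1.44 over the alternatives. Uncultured stalk had 171 and 181.

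The list of antagonists holds secreted proteins, the membrane protein Kremen1 and the intracellular Dact1 and Dact3. Of the 11 tested, the groups did not overlap for 4, of which 3 were higher with Wnt1, and 5 differences were above 0. Of all genes 9.5% were higher and 15.5% lower without overlap. Their relative median was 0.01 and changed sign in 6 of 17 alternatives. Kremen1, a co-receptor of Dkk proteins, had 42.4 and 178 in control medium and 569 and 212 with Wnt1 (1.29 ± 0.79), so that only Wnt1 array 1 was above 298. Dact1, which acts on Dishevelled, had 833 and 891 in control medium and 1328 and 1068 with Wnt1 (0.43 ± 0.53). Its relative Dact3 was without overlap in the other direction, at 1063 and 730.2 in control medium and 308 and 462 with Wnt1 (-1.07 ± 0.56). Dkk1, at 359 and 171 in control medium and 328 and 82.6 with Wnt1, overlapped, and Wif1 was under the filter. Kremen1 had a floored difference of 0.39.

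On the deposited scale, receptors and ligands lay mostly below 0, as did 7930 of all 14184 genes. Of 16 receptors and co-receptors, 12 differences were below 0. The 5 without overlap were all lower with Wnt1, beside 15.5% of all genes lower and 9.5% higher. The relative median of -0.25 kept its sign in the 17 alternatives but was -0.0012 in the closest, and median scaling left 1 receptor lower and 2 higher without overlap. Fzd2 had 1705 and 4235 in control medium and 580.2 and 1639 with Wnt1, so that the highest Wnt1 array and the lowest control array were 1.04-fold apart. Its log2 difference was -1.38 ± 0.52 (limma unadjusted p = 0.0081), with -1.43 and -1.33 by number. The difference was -2.02 without control array 1 and -0.69 without Wnt1 array 1. Fzd7 had 1007 and 1008 in control medium and 586 and 732 with Wnt1 (-0.56 ± 0.54). Fzd4 (-0.82 ± 0.58), Fzd3 (-0.41 ± 0.58) and the R-spondin receptor Lgr6 (-0.69 ± 0.83) were the others. Fzd2, Fzd4 and Lgr6 had probe-set means of -0.65, -0.27 and -0.22. Fzd4 and Lgr6 had floored differences of -0.49 and 0.00.

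Of 19 ligands and R-spondins, 13 differences were below 0. After median scaling the median of this list, not made relative, was 0.05. Without overlap 5 genes were lower with Wnt1 and none higher, beside 15.5% and 9.5% of all genes. After quantile normalization 4 were lower and 3 higher, and after median scaling 3 and 3. The relative median was -0.08 and turned to 0.17 without control array 1. Wnt5a, a ligand best known for beta-catenin-independent signalling, had 622 and 647 in control medium and 454 and 478 with Wnt1 (-0.39 ± 0.57), a separation small beside its error although the replicates were close. Wnt8b (-1.08 ± 0.62), Wnt9b (-1.09 ± 0.85) and Wnt10a (-1.34 ± 0.86) were among the lower genes, with Wnt1 arrays under 298 for Wnt9b and Wnt10a. The R-spondin Rspo3 had 886 and 1119.9 in control medium and 803 and 574 with Wnt1 (-0.50 ± 0.54). Wnt2, a mesenchymal ligand of the lung, had 1047 and 277 in control medium and 436 and 218 with Wnt1 and overlapped (-0.69 ± 0.59). Transcripts of Wnt1 itself and of Wnt2b were under the filter. Wnt9b and Rspo3 had probe-set means of -0.39 and 0.00. Wnt8b, Wnt9b and Wnt10a had floored differences of -0.67, -0.09 and -0.14.

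Of 21 genes of the pathway inside the cell, 1 was higher and 3 lower with Wnt1 without overlap, beside 9.5% and 15.5% of all genes. The relative median of the list was -0.01. Axin1, the scaffold of the destruction complex, had 1123 and 1284 in control medium and 674 and 816 with Wnt1 (-0.64 ± 0.53). The nuclear factor Tcf7l2 had 1083 and 765 in control medium and 631 and 449 with Wnt1 (-0.69 ± 0.55), and the kinase gene Gsk3b gave -0.32 ± 0.54. Ctbp2, a co-repressor, was the gene higher with Wnt1 (0.16 ± 0.52). Ctnnb1, which encodes beta-catenin, had 6171 and 18344 in control medium and 10936 and 12221 with Wnt1, so that both Wnt1 arrays lay between the controls (0.12 ± 0.60). Of its other probe sets, 1 at 51.8 and 45.3 in control medium and 224 and 226 with Wnt1 had no overlap (1.24), and the last gave -0.77. Axin1, Ctbp2 and Ctnnb1 had probe-set means of 0.26, -0.02 and 0.68. Ctnnb1 had a quantile-normalized difference of -0.05.

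The widest gaps of all genes lay outside the Wnt pathway apart from Dkk2. Glipr2, a Golgi-associated protein of the pathogenesis-related family, had 111 and 172 in control medium and 798 and 1329 with Wnt1. Its log2 difference was 2.34 ± 0.60 (limma unadjusted p = 8.7e-05, not past the adjusted threshold), 2.20 and 2.48 by number. A second Glipr2 probe set, at 173 and 223 in control medium and 687 and 557 with Wnt1, also had no overlap and gave 1.33. Tax1bp3, a small PDZ protein that can bind beta-catenin, had 404 and 659 in control medium and 1672 and 2089.6 with Wnt1 (1.70 ± 0.53). Both Wnt1 arrays were 2.54-fold or more above the higher control. Glipr2 had a floored difference of 1.56.

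A pair of mitotic genes was among these. Kif20a, a kinesin needed to complete cell division, had 219.8 and 419.7 in control medium and 962 and 1147 with Wnt1 (1.55 ± 0.56). Mad2l1, a spindle checkpoint protein, had 760.3 and 773 in control medium and 1807 and 1710.1 with Wnt1 (1.12 ± 0.53). The other genes higher with Wnt1 were Sez6 (1.52 ± 0.58), Scnm1 (1.19 ± 0.58), Ubr7 (1.61 ± 0.58), Ostf1 (1.14 ± 0.59) and Limk2 (1.17 ± 0.59). For Ostf1 the second probe set was lower with Wnt1 without overlap (-1.26), Limk2 had a further set at 0.74 and another at -0.81, and the other Sez6 sets gave -0.09 and 0.13. Sez6, Ostf1 and Limk2 had probe-set means of 0.82, -0.06 and 0.37.

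Among genes lower with Wnt1, Ccpg1, a receptor in selective autophagy of the endoplasmic reticulum, had 823 and 1196 in control medium and 62.1 and 225 with Wnt1. Its log2 difference was -2.36 ± 0.60 (limma unadjusted p = 9.2e-05), and its second probe set, without overlap too, gave -0.57. Jarid2, a partner of the Polycomb complex that methylates histone H3, had 1668 and 1796 in control medium and 720.5 and 639.9 with Wnt1 (-1.25 ± 0.53). Dicer1, the enzyme that cuts microRNA precursors, had 898 and 782 in control medium and 267 and 348 with Wnt1 (-1.25 ± 0.57), but its second probe set gave 0.35 with overlap. Rbm15, an adaptor of RNA methylation, had 792 and 710.2 in control medium and 241 and 332 with Wnt1 (-1.19 ± 0.58). Ccpg1 and Dicer1 had probe-set means of -1.47 and -0.45. Ccpg1 had a floored difference of -1.50.

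The remainder of these 10 were Tmem186 (-1.32 ± 0.58), Acap1 (-1.76 ± 0.59), Pign (-1.69 ± 0.59), Mtx3 (-1.23 ± 0.58), Ptchd1 (-1.45 ± 0.57) and Cryzl2 (-1.37 ± 0.60). Pign, which acts in the synthesis of membrane anchors, had 947 and 734 in control medium and 171 and 237 with Wnt1. A pair of its other probe sets also had lower Wnt1 arrays without overlap, at -1.43 and -0.74, and the last pair gave 0.02 and -0.22. The other Tmem186 sets gave -0.92, 0.19 and 0.10, of which the first had no overlap on the lower side and the second none on the higher. Ptchd1 had further sets at -0.75, -0.54 and 0.18, and Mtx3 a pair at -0.19. On dropping sets of the suffixes _x_at and _s_at, the Ptchd1 difference was 0.18. Most of the 20 genes had Wnt1 or control signals under 298 in their lower group, with 298 standing in for the noise level; Tax1bp3, Mad2l1 and Jarid2 were above 298 on all 4 arrays. Tmem186, Acap1, Pign, Mtx3, Ptchd1 and Cryzl2 had probe-set means of -0.72, -0.84, -0.89, -0.71, -0.60 and -0.74.

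**Figure D3:**
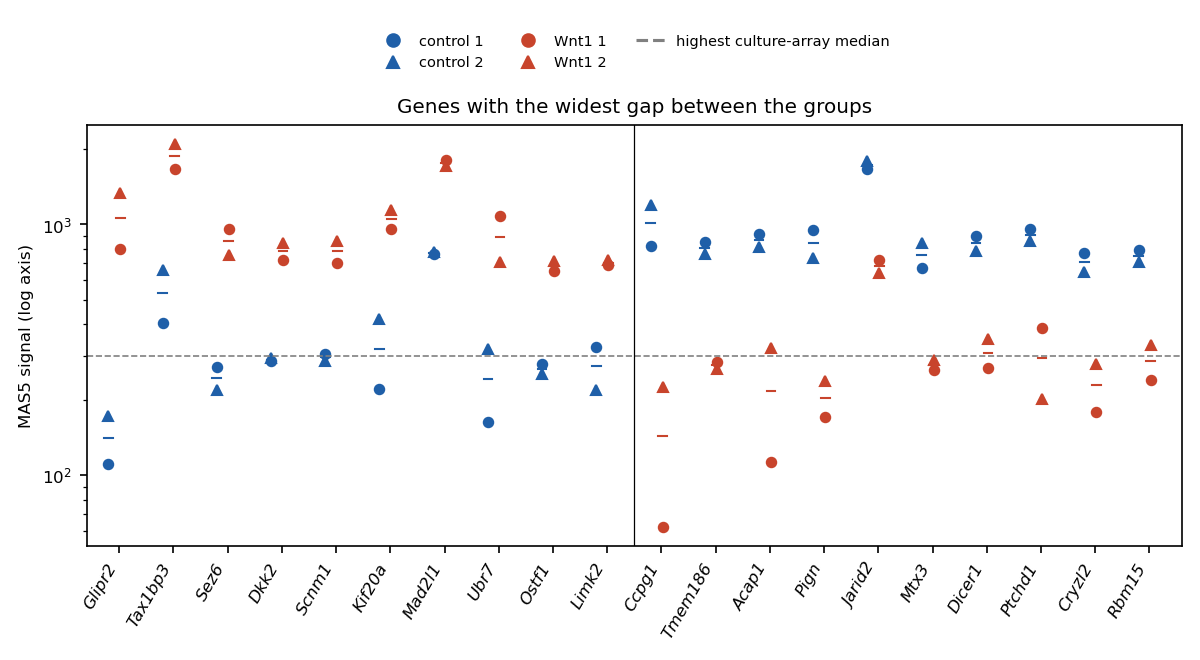
MAS5 signal on a log axis in control (blue) and Wnt1 (red) arrays for the 10 genes higher and the 10 lower with Wnt1 that had the widest gap between groups, in order of the gap and split by the vertical line; circles are arrays numbered 1, triangles those numbered 2, short bars group means. Both points of each group lie together for Mad2l1 and Jarid2, and many points of the lower group fall under the dashed line at 298.

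Smooth muscle genes lay mostly above 0, by an amount that differed with each array left out. Of 19 contractile genes, 13 differences were above 0, and 4 were higher with Wnt1 without overlap and 0 lower, beside 9.5% and 15.5% of all genes. Relative to all genes the median was 0.25, 0.12 by the arrays numbered 1 and 0.45 by those numbered 2. It was -0.03 without Wnt1 array 2, 0.61 without Wnt1 array 1, 0.06 without control array 1 and 0.47 without control array 2. Wnt1 array 2 is the array with the Actb 3' to 5' ratio of 6.81.

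Tagln, an actin-binding protein of early smooth muscle, had 12299.6 and 9306 in control medium and 13439 and 41328 with Wnt1. Wnt1 array 1 was 1.09-fold above the higher control, and the log2 difference of 1.13 ± 0.63 came to 0.33 without Wnt1 array 2. Actg2, the enteric smooth muscle actin, showed the same pattern with 8366 and 8270.0 in control medium and 9150.2 and 23174 with Wnt1 (0.80 ± 0.60). Acta2, smooth muscle alpha-actin, had 101822 and 89032 in control medium and 122878 and 107622 with Wnt1 (0.27 ± 0.95). Its lower Wnt1 array was 1.06-fold above the higher control, and uncultured stalk had 3321 and 4457. Myocd, the co-activator that switches on smooth muscle genes, had 449 and 419.6 in control medium and 679 and 471 with Wnt1 (0.33 ± 0.57). Myh11, the myosin of mature smooth muscle, overlapped (0.13 ± 0.64), and its second probe set was lower with Wnt1 without overlap (-1.22). Acta2 and Myh11 had probe-set means of -0.30 and -0.55.

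Cell cycle genes gave mixed values. Of 19 mitosis genes, 14 differences were above 0. Without overlap 6 were higher and 1 lower with Wnt1, beside 9.5% and 15.5% of all genes. The relative median of the mitosis genes was 0.31, with 0.27 and 0.43 by number. It was -0.08 without control array 1 and -0.11 without Wnt1 array 2, and 0.75 without control array 2. The direct difference of Wnt1 array 1 minus control array 2 had a relative median of -0.57, against 1.11 for Wnt1 array 2 minus control array 1. Median scaling left 2 mitosis genes higher and 0 lower without overlap.

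Ube2c, which works with the anaphase-promoting complex, had 1825 and 1516 in control medium and 2514 and 3691 with Wnt1 (0.84 ± 0.52). Ccnb2, a mitotic cyclin, had 599 and 1213 in control medium and 1435 and 1727 with Wnt1 (0.82 ± 0.53). Cdk1, the kinase that drives mitosis, had 2399.9 and 2582 in control medium and 2713 and 5199 with Wnt1 (0.58 ± 0.53), and Birc5 (0.47 ± 0.52) and Aurkb (0.25 ± 0.55) were also without overlap. The spindle motor Kif11 was lower, at 661 and 636 in control medium and 394 and 376 with Wnt1 (-0.65 ± 0.57). Mki67, the proliferation marker, had 1481 and 4944 in control medium and 1127 and 1769.6 with Wnt1, so that its groups overlapped (-0.91 ± 0.52). Kif11 had a probe-set mean of 0.01.

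Of 19 DNA replication genes, 3 were higher and 2 lower with Wnt1 without overlap, beside 9.5% and 15.5% of all genes. The list's relative median of 0.17 turned to -0.09 without control array 1 and to -0.17 without Wnt1 array 2. Pcna, the replication clamp, had 4616 and 4085 in control medium and 6531 and 9799 with Wnt1 (0.87 ± 0.55). Gins2 (0.71 ± 0.52) and Gins1 (0.28 ± 0.52), subunits of the replicative helicase, were the others that were higher, and Pola1 (-0.35 ± 0.55) and Ccne2 (-0.19 ± 0.56) were lower. Among 14 G1 regulators, Cdk4 had 3336 and 7496 in control medium and 7817 and 13550.0 with Wnt1 (1.03 ± 0.56), and its inhibitor Cdkn2b had 369.6 and 482 in control medium and 1131 and 549 with Wnt1 (0.80 ± 0.56). The relative median of that list was -0.05. Gins1 and Pola1 had probe-set means of -0.19 and -0.07. Ccne2 had a median-scaled difference of 0.03.

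**Figure D4:**
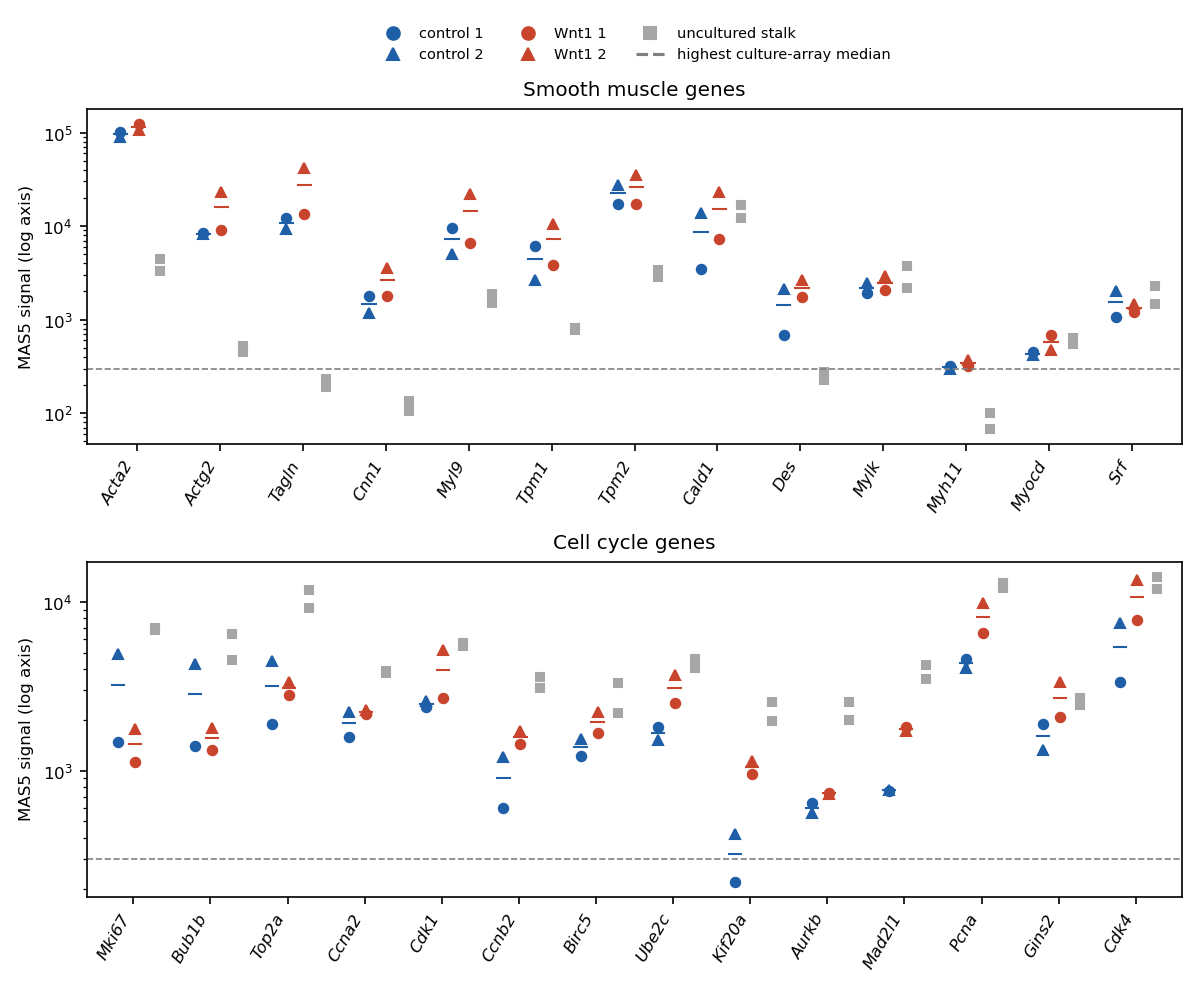
MAS5 signal on a log axis of 13 smooth muscle genes (top) and 14 cell cycle genes (bottom) in control (blue) and Wnt1 (red) arrays, circles numbered 1 and triangles numbered 2, with group means as short bars, uncultured stalk as grey squares and 298 as a dashed line. Wnt1 array 2 is the highest culture array for Tagln and Actg2, and Kif20a and Mad2l1 have both red points above the blue ones.

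Matrix genes lay mostly below 0. On the deposited scale all 10 interstitial collagens had differences below 0, and 3 were lower with Wnt1 without overlap, beside 15.5% of all genes. The relative median was -0.42 and kept its sign in 17 alternatives, yet it was 0.24 by the arrays numbered 1 and -1.10 by those numbered 2, and -0.08 without control array 2. Col6a2 had 1339 and 4203 in control medium and 996 and 391 with Wnt1 (-1.79 ± 0.53; limma unadjusted p = 0.00067, not past the adjusted threshold). Col1a1, the main fibrillar collagen chain, chosen for display after its values were seen, had 1463 and 6124 in control medium and 2318 and 1936 with Wnt1, so that control array 2 stood alone (-0.49 ± 0.52). Col14a1 (-0.67 ± 0.58) and Col12a1 (-0.35 ± 0.57), which lie on the surface of collagen fibrils, had no overlap. Col1a1 and Col12a1 had probe-set means of -1.06 and -0.79.

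Of 13 elastic fibre and microfibril genes 3 were lower with Wnt1 without overlap, with a relative median of -0.19 that turned to 0.20 without control array 2. After median scaling 0 of them were lower without overlap. The microfibril protein Mfap4 had 707 and 1103 in control medium and 62.7 and 551 with Wnt1 (-1.68 ± 0.58). Fbln1, a fibulin of elastic fibres and basement membranes, had 829 and 817 in control medium and 118 and 512 with Wnt1 (-1.40 ± 0.58), and its relative Efemp1 gave -0.96 ± 0.63. Beside 15.5% and 9.5% of all genes, 5 of 15 matrix proteases and inhibitors were lower and 0 higher without overlap. Their relative median of -0.19 was -0.05 without control array 2. Among them Adamts20 had 292 and 535 in control medium and 7.43 and 19.2 with Wnt1 (floored difference -0.35), Mmp11 gave -0.74 ± 0.56, Mmp23 gave -0.62 ± 0.52, Adamts5 gave -0.41 ± 0.55 and the inhibitor Timp3 gave -0.08 ± 0.54. Fbln1, Mmp23 and Timp3 had probe-set means of -0.33, -0.33 and 0.23. Mfap4, Fbln1 and Efemp1 had floored differences of -0.98, -0.93 and -0.63. Timp3 had a median-scaled difference of 0.15.

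Laminin chains Lama4 (-1.43 ± 0.96) and Lama5 (-1.41 ± 0.59) were lower without overlap among 13 basement membrane genes, whose relative median of 0.00 turned sign in 8 alternatives. Glypicans Gpc2 (-1.64 ± 1.13) and Gpc6 (-0.31 ± 0.55) were lower among 9 glypicans and syndecans, with a relative median of -0.23 that turned to 0.03 without control array 2 and to 0.02 without Wnt1 array 1. In a list of 8 provisional matrix genes, the hyaluronan receptor Cd44 was higher (0.71 ± 0.59) and the crosslinking enzyme Tgm2 lower (-0.60 ± 0.61), with a relative median of -0.09 that turned sign in 2 alternatives. Gpc2 and Lama4 were under 298 on all 4 arrays. Gpc6 and Cd44 had probe-set means of 0.15 and 0.39. Lama5 had a floored difference of -0.80.

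Other signalling pathways were described in the same way, and none of their genes passed. Of 11 hedgehog genes 3 were lower without overlap, the repressor Gli3 (-0.41 ± 0.54), the co-receptor Boc (-0.73 ± 0.55) and the target Foxf1 (-0.56 ± 0.57). That count stands beside 15.5% of all genes, and median scaling left 0 hedgehog genes lower and 1 higher. The hedgehog readouts Ptch1 (0.10 ± 0.55) and Gli1 (0.32 ± 0.85) overlapped. Of 10 Fgf ligands and receptors, Fgfr1 had 512 and 509 in control medium and 181 and 261 with Wnt1 (-0.98 ± 0.63), and Fgf18 gave -0.47 ± 0.59. With sets of the suffixes _x_at and _s_at dropped, Fgfr1 was at 0.55. Fgf10, the mesenchymal signal for branching, had 796 and 503 in control medium and 953 and 271 with Wnt1, so that the Wnt1 arrays lay on either side of both controls (-0.25 ± 0.56). Of 9 Fgf-response genes, the inhibitor Il17rd was higher (1.08 ± 0.62) and the factor Etv4 lower (-0.74 ± 0.75). Gli3 and Fgfr1 had probe-set means of -0.13 and -0.22. Gli1, Fgfr1 and Etv4 had floored differences of 0.00, -0.64 and -0.06.

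Among 17 Bmp genes, the target Id1 had 1561 and 982 in control medium and 2222 and 2375 with Wnt1 (0.85 ± 0.52), while Id4 (-0.44 ± 0.52) and the ligand Bmp5 (-0.78 ± 0.59) were lower and Bmp4 overlapped (-0.08 ± 0.53). Of 13 Tgf-beta genes 4 were lower and 1 higher, beside 15.5% and 9.5% of all genes. After median scaling 1 was lower and 0 higher. Tgfbi, a secreted target, had 1754 and 3588 in control medium and 1127 and 1048 with Wnt1 (-1.15 ± 0.52). Ltbp3 (-1.29 ± 0.57), which stores the latent ligand, Tgfbr3 (-1.19 ± 0.76) and Inhba (-0.38 ± 0.53) were lower, and the receptor Tgfbr2 was higher (0.90 ± 0.55). Id4, Bmp5, Tgfbi and Ltbp3 had probe-set means of 0.20, -0.38, -0.76 and -0.70. Bmp5 and Tgfbr3 had floored differences of -0.47 and -0.22. Bmp4 had a median-scaled difference of 0.15.

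Of 12 Notch genes 2 were higher and 2 lower, beside 9.5% and 15.5% of all genes. After median scaling 2 were higher and 0 lower. Hey1, a nuclear target of Notch, had 84.4 and 80.4 in control medium and 346 and 339 with Wnt1, with close replicates on either side of the 298 floor (1.38 ± 0.82). Notch1 was higher (0.91 ± 0.58), and Notch3 (-0.57 ± 0.53) and Dll4 (-0.58 ± 0.73) were lower. The relative median of this list was -0.32, and it turned to 0.21 without Wnt1 array 2. In the retinoic acid list of 10 genes, the synthetic enzyme Aldh1a2 (0.37 ± 0.52) and the carrier Crabp2 (0.22 ± 0.53) were higher and the degrading enzyme Cyp26b1 was lower (-0.21 ± 0.62). That relative median was 0.33, and it was 0.02 without Wnt1 array 2. Notch1 had a probe-set mean of -0.01. Hey1 and Dll4 had floored differences of 0.16 and -0.07. Cyp26b1 had a median-scaled difference of 0.00.

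Among 12 genes of the Igf axis, Igf1r had 965 and 961 in control medium and 526 and 573 with Wnt1 (-0.73 ± 0.55), and the binding protein Igfbp7 had 1115 and 996 in control medium and 1285 and 3777 with Wnt1 (1.02 ± 0.52). In a list of 12 Yap and serum response genes, Ajuba (0.95 ± 0.56) and Axl (0.53 ± 0.63) were higher and Tead1 lower (-0.19 ± 0.53). Its relative median of 0.24 was 0.03 without Wnt1 array 2. Relative medians were 0.18 for hedgehog, -0.24 for Fgf, 0.02 for Fgf-response, 0.11 for Bmp, -0.12 for Tgf-beta and -0.10 for Igf genes, and each of these turned sign in at least 1 alternative. Igf1r and Tead1 had probe-set means of -0.04 and 0.11. Axl had a floored difference of 0.25. Tead1 had a median-scaled difference of 0.04.

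The labelled tissue was checked against transcription factors of lung mesenchyme. All 20 on the list were tested. Tcf21, a factor of lung mesenchyme, had 924 and 878 in control medium and 1601 and 1251 with Wnt1 (0.61 ± 0.53). Tbx4, which acts in the lung bud, had 741 and 877 in control medium and 1013 and 1183 with Wnt1 (0.41 ± 0.53). Gata6 (0.54 ± 0.52) and its partner Zfpm2 (0.64 ± 0.55) were also higher without overlap, and Foxf1 and Twist2 (-0.49 ± 0.54) were lower. The 4 higher against 2 lower were 5 and 0 after median scaling, and the relative median was 0.06, or 0.48 without control array 2. Of 14 general mesenchyme markers, Vim, an intermediate filament, had 36381 and 36024 in control medium and 36399 and 64563 with Wnt1 (0.42 ± 0.77), and Snai2 had 11717 and 19756 in control medium and 7594 and 7724 with Wnt1 (-0.98 ± 0.60). That list's relative median of -0.40 was -0.07 without Wnt1 array 2 and -0.06 without control array 2. Tcf21 and Gata6 had probe-set means of 0.14 and -0.66.

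Markers of other cell types that dissected stalk could hold were read next, and in these bulk samples fewer cells of a type and less RNA per cell cannot be told apart. Of 15 endothelial genes 7 passed the filter, all with differences below 0, and 4 were lower without overlap, beside 15.5% of all genes. Kdr, a Vegf receptor, had 688 and 661 in control medium and 585 and 337 with Wnt1 (-0.52 ± 0.57), and Flt1 (-0.79 ± 0.57), Esam (-1.08 ± 0.72) and Cldn5 (-1.07 ± 0.65) were the others. The summed endothelial signal was 4098 and 3565 in control medium and 2935 and 1946 with Wnt1. The relative median was -0.45, kept its sign in 17 alternatives and ranged from -0.67 to -0.09, with -0.24 without Wnt1 array 2. Pericyte markers summed to 5628 and 11460.4 in control medium and 4841 and 6251 with Wnt1, with Cspg4 (-1.86 ± 0.99), Notch3 and Rgs5 (-0.49 ± 0.54) lower among 8 and a relative median of -0.43 that ranged from -0.85 to -0.31. Flt1 and Rgs5 had probe-set means of -0.42 and -0.14. Esam, Cldn5 and Cspg4 had floored differences of -0.33, -0.61 and -0.10.

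Macrophage markers summed to 15308 and 27259 in control medium and 14452 and 17085 with Wnt1. Of 14, Csf1r (-0.86 ± 0.54), Adgre1 (-0.91 ± 0.52), Ptprc (-0.81 ± 0.64), C1qb (-0.52 ± 0.53) and Cd68 (-0.22 ± 0.56) were lower and Fcgr3 was higher (0.67 ± 0.58). After median scaling 1 was higher and 0 lower. Epithelial markers summed to 9437 and 11673 in control medium and 9653 and 23253 with Wnt1, though 5 differences were above 0 and 7 below. Krt8 and Krt18 were at 1.61 and 2.04 without Wnt1 array 1, and at -0.69 and -0.71 without Wnt1 array 2. Nkx2-1 and Sftpc gave -0.28 and -0.60 with all arrays. Among the 12, Krt19 was higher (0.70 ± 0.53), Epcam (-0.11 ± 0.54), Cldn7 (-0.79 ± 0.87) and Shh (-0.79 ± 1.05) were lower, and Cldn7 and Shh were under 298 on every array. Ptprc had a floored difference of -0.45. Epcam had a median-scaled difference of 0.13.

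Mesothelial markers summed to 7782 and 9755 in control medium and 9095 and 8863 with Wnt1, with Wt1 (-0.30 ± 0.57) and Gpm6a (-0.99 ± 0.71) lower and Krt19 and Aldh1a2, named above, higher. Erythroid markers, embryonic globins among them, summed to 342591 and 148938 in control medium and 235826 and 141440 with Wnt1. They differed by array number more than by medium, and Alas2 was the erythroid gene without overlap (0.26 ± 0.67). Cartilage markers summed to 4538 and 3267 in control medium and 4087 and 1825 with Wnt1, with Col9a1 (-0.90 ± 0.57) and Matn1 (-1.10 ± 0.85) lower. Sox9, the chondrocyte factor, had 384 and 156 in control medium and 322 and 117 with Wnt1 (-0.23 ± 0.74), and its other probe sets gave 0.62 and -2.06. Neural crest and neuron markers summed to 3307 and 2671 in control medium and 3190 and 1626 with Wnt1, with Ednrb (-0.92 ± 0.55) and Hand2 (-1.38 ± 0.81) lower. Tested members above 298 on all 4 arrays numbered 3 of 7 endothelial, 3 of 8 pericyte, 8 of 14 macrophage, 6 of 12 epithelial, 5 of 10 mesothelial, 4 of 8 erythroid, 1 of 10 cartilage and 2 of 8 neural genes. Relative medians of the last 6 of these lists lay between -0.18 and 0.26, and each turned sign in at least 1 alternative. The part of these cell types in the differences above was not tested. Sox9 and Ednrb had probe-set means of -1.15 and -0.29. Gpm6a, Alas2, Matn1, Sox9 and Hand2 had floored differences of -0.27, 0.09, 0.00, -0.10 and -0.32.

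**Figure D5:**
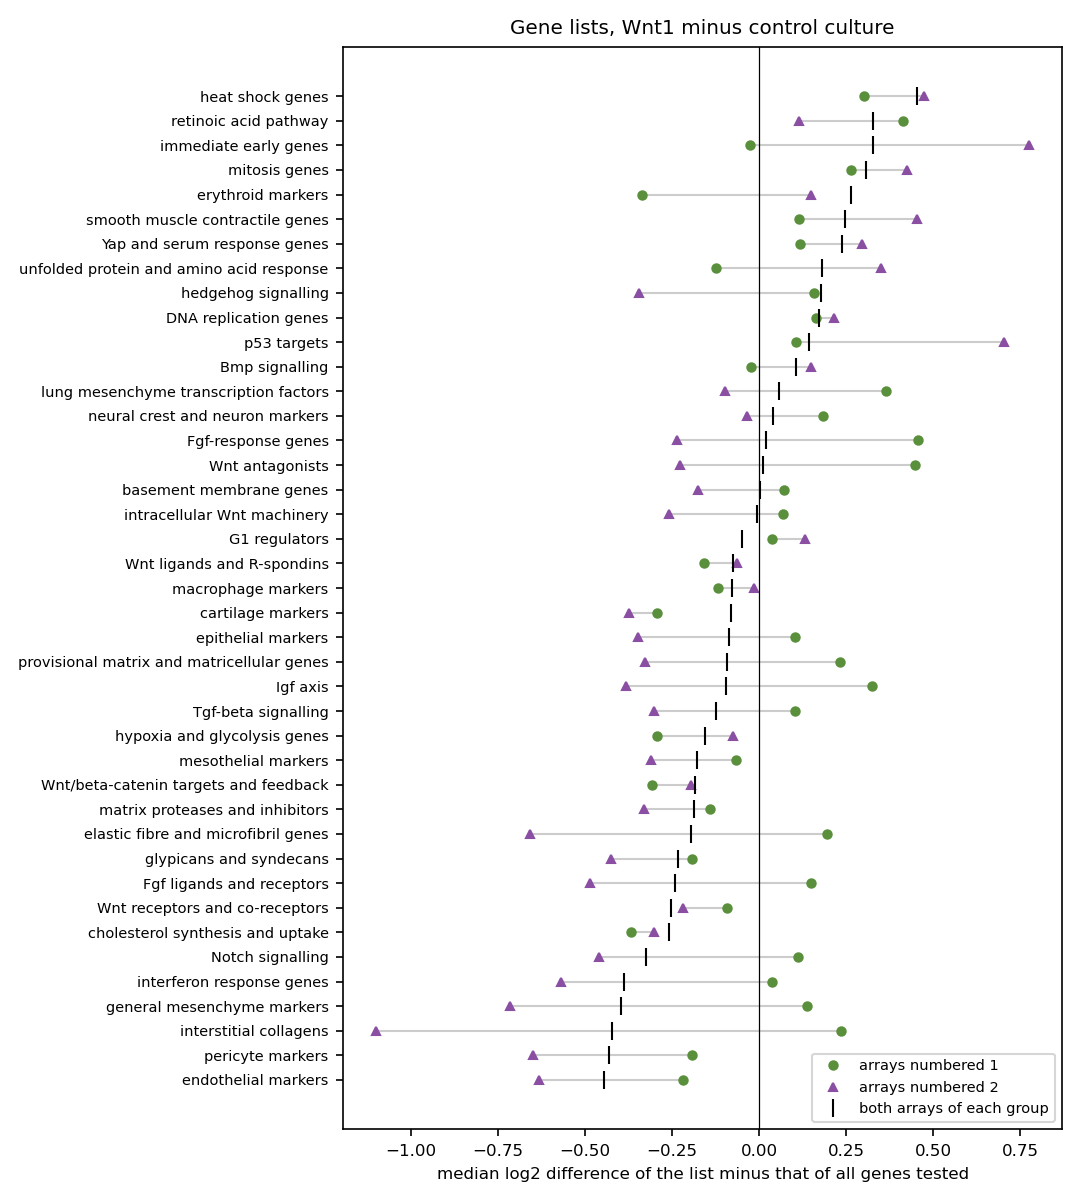
Median log2 difference, Wnt1 minus control, of 41 gene lists, minus the median of all genes, for both arrays of each group (black bar), the arrays numbered 1 (green circle) and those numbered 2 (purple triangle). Interstitial collagens stand at 0.24 and -1.10 by number. The Wnt targets at -0.31 and -0.20 and the mitosis genes at 0.27 and 0.43 have like values by number. With the numbers crossed, not drawn here, the Wnt targets gave 0.01 and -0.10 and the mitosis genes -0.57 and 1.11.

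Cell state was read from stress, metabolic and immediate early genes. Of 16 immediate early genes, which respond within minutes to growth factors and handling, 14 differences were above 0. Without overlap 3 were higher, beside 9.5% of all genes. Jun had 731 and 796 in control medium and 889 and 838 with Wnt1 (0.16 ± 0.54), Atf3 gave 0.35 ± 0.55 and Klf2, at 63.2 and 33.6 in control medium and 482 and 263 with Wnt1, gave 1.78 ± 0.88. Across the list the relative median was 0.33, from -0.03 for the arrays numbered 1 to 0.78 for those numbered 2, and 0.01 without control array 2. Of 11 heat shock genes, Hspb1 had 5252 and 3579 in control medium and 6539 and 18958 with Wnt1 (1.35 ± 0.56), Dnaja1 was higher (0.70 ± 0.57) and Hspa8 lower (-0.08 ± 0.91). That relative median of 0.46 turned to -0.13 without Wnt1 array 2 and to -0.08 without control array 1. Jun, Dnaja1 and Hspa8 had probe-set means of 0.02, 0.15 and 0.15. Klf2 had a floored difference of 0.29. Hspa8 had a median-scaled difference of 0.17.

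Of 16 hypoxia and glycolysis genes, 14 differences were below 0. Without overlap 5 were lower and 1 higher, beside 15.5% and 9.5% of all genes. Ankrd37 (-1.66 ± 0.67), Vegfa (-1.31 ± 0.75), Hk2 (-0.53 ± 0.53), Bnip3 (-0.25 ± 0.53) and Ldha (-0.18 ± 0.57) were lower and Ndrg1 higher (0.46 ± 0.57) without overlap. Hk2, which traps glucose in the cell, had 1147 and 1224 in control medium and 787 and 800.5 with Wnt1. Their relative median was -0.16 and turned to 0.13 without Wnt1 array 1. Ndrg1 had a probe-set mean of 0.08. Ankrd37 and Vegfa had floored differences of -0.77 and -0.31. Ldha had a median-scaled difference of 0.07.

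Cholesterol synthesis genes lay below 0 by either number, though not in both pairs when the numbers were crossed. Of 12, 9 differences were below 0. Without overlap 5 were lower and 0 higher with Wnt1, beside 15.5% and 9.5% of all genes. After quantile normalization 5 were lower, and 1 after median scaling. The relative median was -0.26, with -0.37 and -0.30 by number, and ranged from -0.55 to -0.13 over 17 alternatives. It was -0.82 for Wnt1 array 1 minus control array 2 and 0.13 for Wnt1 array 2 minus control array 1. Dhcr7, the enzyme of the last step, had 999 and 1661 in control medium and 49.6 and 693 with Wnt1 (-2.11 ± 0.56; limma unadjusted p = 0.00017, not past the adjusted threshold). Hmgcs1, an early enzyme of the route, had 28703 and 47887 in control medium and 20963 and 27654 with Wnt1 (-0.62 ± 0.71). Sqle (-0.38 ± 0.53), Sc5d (-0.62 ± 0.57) and Mvd (-0.62 ± 0.56) completed the 5, though Mvd was at 0.67 once sets of the suffixes _x_at and _s_at were dropped. Hmgcs1, Sc5d and Mvd had probe-set means of -0.23, -0.42 and 0.03. Dhcr7 had a floored difference of -1.34.

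In the list of 13 genes of the unfolded protein and amino acid response, Ddit3 (0.58 ± 0.52), Xbp1 (0.69 ± 0.54) and Herpud1 (0.31 ± 0.54) were higher and the chaperones Calr (-0.61 ± 0.68) and Pdia4 (-0.91 ± 0.86) lower. Of 10 p53 targets, Phlda3 (0.37 ± 0.52) and Perp (0.46 ± 0.61) were higher and Trp53inp1 lower (-0.65 ± 0.52). Of 10 interferon response genes, Usp18 (-1.24 ± 0.79), Oas1a (-0.63 ± 0.55) and Irf9 (-0.61 ± 0.58) were lower, with a relative median of -0.39 that was -0.05 without Wnt1 array 2. Herpud1 had a probe-set mean of -0.18. Pdia4 and Usp18 had floored differences of -0.12 and -0.16.

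Sex-linked genes were read as a check on the arrays. Xist, expressed from the inactive X of females, had 1477 and 906 in control medium and 149.7 and 1299 with Wnt1, and the Y-linked Eif2s3y had 720.4 and 843 in control medium and 595 and 366 with Wnt1. Wnt1 array 1 was thus the lowest of the 4 on this Xist probe set. A second Xist set, at 418 and 371 in control medium and 15.1 and 560 with Wnt1, had the same lowest array. On another, at 1065 and 396 in control medium and 340 and 294 with Wnt1, Wnt1 array 2 was lowest. Eif2s3y was above 298 on all 4 arrays, with a difference of -0.65. The other Y-linked genes tested, Kdm5d and Uty, gave 0.37 and 0.12.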

How the data were processed

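Per the labels' protocols, cDNA was made with a 2-cycle kit and the biotin-labelled product was read on Affymetrix arrays. The authors deposited MAS5 signal intensities, a linear scale made in Affymetrix Expression Console per the submitters' processing notes. Tool versions: not given in the sources used here. Detection calls were not used here.

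Of 45101 probe sets, 34945 had 1 gene symbol, 932 several and 9160 none in the platform annotation, and 64 controls were left out. 34741 matched RefSeq (GRCm38.p6) by gene ID. Intensities were taken as log2(value + 80.5), the addend being the 25th percentile of the 4 culture arrays. Fold changes on this log2 scale understate those of low genes. Probe sets had to exceed 162, the 40th percentile, on at least 2 arrays, and the probe set with the highest mean stood for a gene. The test was limma 3.58.1 under R 4.3.3 (eBayes with an intensity trend after lmFit, two-sided, Benjamini-Hochberg over all 14184 genes, threshold 0.05). It was also run on simulated independent arrays with added differences larger than any group difference seen here. That run does not show which smaller differences the test could find. The estimated prior degrees of freedom were infinite, so standard errors do not reflect a gene's own replicates. The highest array median, 298, stood in for the noise level. Depth has no meaning for arrays, and their number limits the precision.

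Named were the 10 genes with the widest gap per direction, up to 3 non-overlapping members per list by absolute difference and a fixed set of Wnt, muscle and cell cycle genes. Predicted and clone-named genes were left out. Further listed genes without overlap were named after their values were seen, to account for the counts. Members and the 42 lists were chosen with earlier results of these data known. Of listed genes, 85 had no value here, either with no probe set of their own or under the filter. The 18 alternatives covered the pseudocount, filter, scaling, floor, probe set rule, variance model, arrays in the fit, threshold, replicate block and each array left out; the threshold does not move a median, which leaves 17. Figures were drawn with Python 3.11.15 and matplotlib 3.10.9.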

Additional observations from a re-analysis of the deposited data

How the results depend on the processing

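The count of genes past the threshold was 0 under every alternative that kept all 4 culture arrays, and 0 to 11 with 1 array left out, where the lone array is assumed to vary like the others. It was 1 without Wnt1 array 1 (Malat1) and 11 without Wnt1 array 2 (Malat1, Ccpg1, Cds2, Csnk1g3, Dhcr7, Gtf3c4, Khk, Nfia, Phf3, Sart3 and Wasl), named here after their values were seen. Malat1 had signals of 32003 and 540 in control medium and 30997 and 312 with Wnt1, so its calls, -3.51 and 2.80 on the log2 scale, follow the array number and oppose each other. Genes without overlap numbered 3547, and 7881 to 9657 with 1 array left out, where 1 array is set against 2. Unadjusted limma p-values under 0.05 numbered 325, and 1085 when all 8 arrays shared the spread (smallest adjusted p 0.270).

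With the replicate block, 0 genes passed the threshold, 759 had an unadjusted p under 0.05 and the smallest adjusted p was 0.885. Deviations of same-numbered arrays from their group means correlated at 0.37 across genes, but there are only 2 pairs and the labels tie the numbers to nothing shared, so the pairing was not used.

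Of 43 medians (42 lists and all genes), taken without subtracting that of all genes, 12 kept their sign in every alternative. Of 536 genes listed or named, 194 did. Signals under 298, 2 arrays per group and unlike medians limit what these values can show.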
